A study of Mus musculus with 5 samples.

Results

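A set of 10 genes that carry out or control the mineralisation of bone, out of 19938 genes tested, was followed in mandibular condyle cartilage (the jaw's side of the temporomandibular joint) of mice without discoidin domain receptor 1. They were taken by symbol, as Alpl, Ibsp, Sp7, Dmp1, Phex, Mepe, Sost, Ifitm5, Dlx5 and Smpd3, and all 10 had 1 row of their own on the array. The arrays compared 2 DDR-1-KO mice, called knockout 2 and knockout 5 after their labels, with 3 wild-type mice, called wild type 3, 4 and 6. All were labelled as strain 129/Sv, and the labels give neither age nor sex, nor the construction of the knockout allele. RNA came straight from the dissected tissue, so each array is 1 piece of tissue that can hold cartilage, fibrous layer, bone and marrow. Ddr1 encodes a receptor tyrosine kinase activated by collagen, and the comparison asks how this tissue's transcripts differ when the receptor is missing.

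Bone mineral forms in a collagen matrix laid down by osteoblasts, which then become osteocytes when the matrix closes around them. The transcription factors Sp7 (osterix) and Dlx5 drive osteoblast differentiation. Alkaline phosphatase (Alpl) removes pyrophosphate, which blocks crystal growth, and the sphingomyelinase Smpd3 acts on membranes and is needed for normal mineralisation in mice. Ibsp, Dmp1 and Mepe are acidic phosphoproteins of the SIBLING family, which bind or regulate mineral. Phex, a membrane peptidase of osteocytes, and Sost, the secreted Wnt antagonist sclerostin, act on phosphate balance and on bone formation, and Ifitm5 is a membrane protein of mineralising osteoblasts. In the mandibular condyle, mineralising tissue lies below the cartilage, and late hypertrophic chondrocytes express some of these genes as well.

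Levels below are log2 signals as deposited, and a change is the knockout mean minus the wild-type mean on that scale. None of the 10 genes passed the test between knockout and wild type, which asked for an adjusted p under 0.05 in limma's moderated test with Benjamini-Hochberg adjustment over all genes. Over all genes 3.73% passed, 1.55% higher and 2.18% lower in knockout, and 1 of the 10 had an unadjusted p under 0.05 against 18.2% of all genes. The share of all genes that passed depended on the setting. With the run as a block, cyclic loess, quantile normalisation, array weights or any 1 wild-type array left out, limma called 0 of the 19938 genes, with 1917 to 3919 at an unadjusted p under 0.05. Without knockout 2 it called 3913 higher and 3600 lower, and without knockout 5 it called 3930 higher and 6069 lower. Alpl was lower in both knockout mice, and it was the only one of the 10 whose groups did not overlap, against 31.5% of all genes. Ibsp, Sost and Ifitm5 were lowest in knockout 2 and highest in knockout 5, with every wild-type mouse in between. Smpd3 stood above the rest in knockout 2 and Dmp1 in knockout 5, each in that mouse alone. Phex and Dlx5 each left the common value in 1 knockout mouse by under 0.1, and Sp7 and Mepe had the same value on all 5 arrays.

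**Figure D1:**
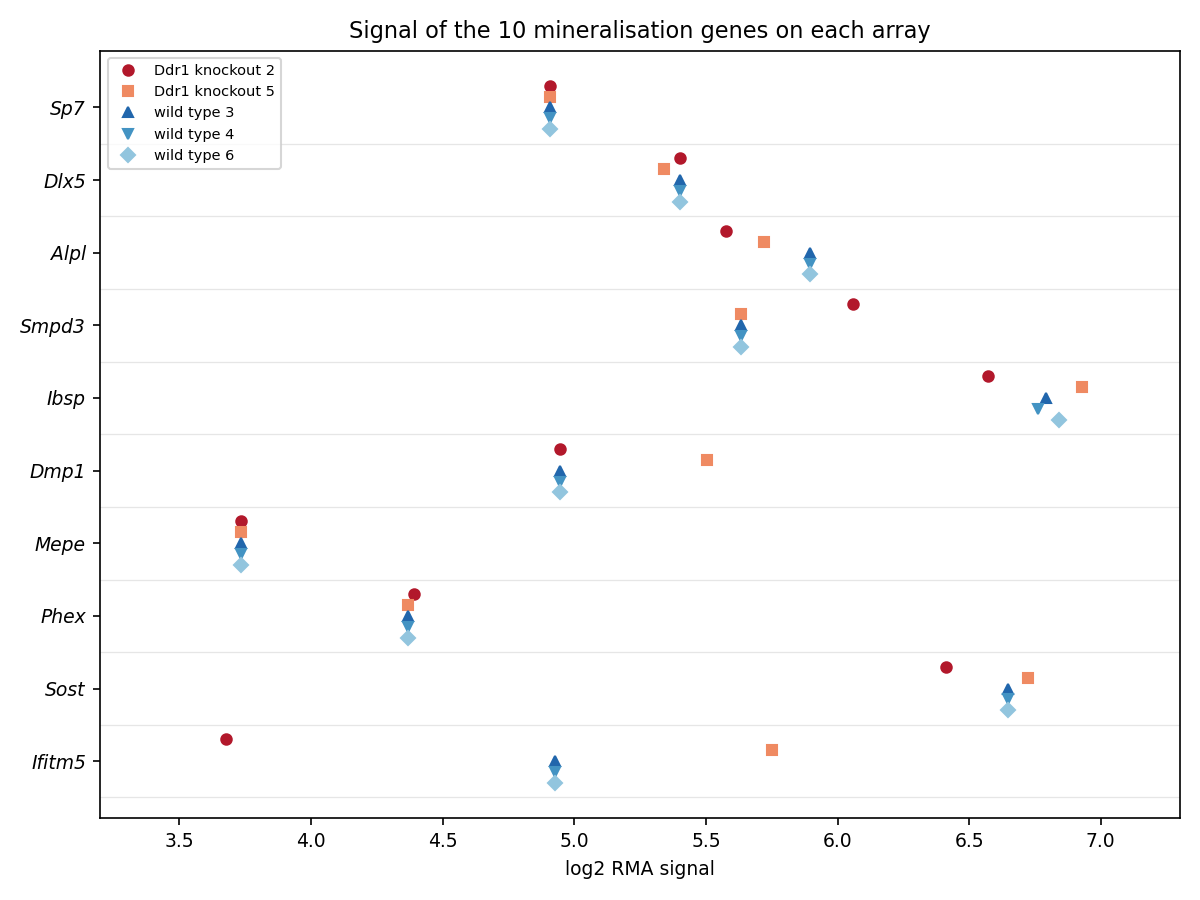
Log2 RMA signal (horizontal axis) of the 10 mineralisation genes (rows, by role) on the 2 Ddr1 knockout arrays and the 3 wild-type arrays; each point is 1 array. Alpl has both knockout points left of wild type, at 5.57 and 5.72 against 5.89 to 5.90. Ibsp, Sost and Ifitm5 have 1 knockout point on each side, and Sp7 and Mepe have 5 points in 1 place.

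The data themselves limit these comparisons. The values of a transcript were summarised by median polish, which works on medians and can give several arrays exactly the same value although their probes differ, so a shared value does not show equal expression. The 3 wild-type values were identical for 8 of the 10 genes, all but Alpl and Ibsp, against 39.1% of all genes. All 5 values were identical for 2 of the 10, against 6.26% of all genes. Where wild type had a single value, its spread was 0 and added no variation to the pooled spread of both groups, which limma moderates. For these genes the SE thus depends on the pair of knockout arrays and the moderation, and for Sp7 and Mepe on the moderation alone. Across genes, the signals had an SD of 0.802 on array knockout 2 and of 0.906 on array knockout 5, compared with 0.991 to 1.02 on the wild-type arrays. Knockout 2 correlated with the wild-type arrays at 0.814 to 0.837 and knockout 5 at 0.903 to 0.927, while wild-type pairs reached 0.984 to 0.993. The 2 knockout arrays correlated with each other at 0.803, lower than either did with any wild-type array. Ddr1 itself had 5.96 for knockout 2 and 5.80 for knockout 5 compared with 6.02 for each wild-type mouse. Its change was -0.14 (limma's adjusted p = 0.377), and its sign turned under cyclic loess, quantile normalisation and scaling. The positions of its probes relative to the deletion were not used here, so Ddr1 does not check the genotype labels.

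The 250 bases before the annotated start are shown for Alpl, whose groups were apart, and for Ibsp, Sost and Ifitm5, which shared an order over the arrays. They are from RefSeq on GRCm38.p6, whose promoter table held 7 of the 10 genes, Alpl and Dmp1 with more than 1 start. All are written 5′ to 3′ on the gene's strand. Capitals mark matches to the RUNX core TGTGGT, the homeodomain core TAATTA, the GC box GGGCGG or the CCAAT box, each searched on both strands.
Alpl (upstream start), chr4:137796385-137796634, minus strand: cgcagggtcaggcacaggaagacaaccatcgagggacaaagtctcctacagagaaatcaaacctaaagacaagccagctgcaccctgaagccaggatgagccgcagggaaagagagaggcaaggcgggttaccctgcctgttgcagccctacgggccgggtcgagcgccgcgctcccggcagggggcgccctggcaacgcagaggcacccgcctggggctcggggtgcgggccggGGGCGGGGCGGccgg
Ibsp, chr5:104299037-104299286, plus strand: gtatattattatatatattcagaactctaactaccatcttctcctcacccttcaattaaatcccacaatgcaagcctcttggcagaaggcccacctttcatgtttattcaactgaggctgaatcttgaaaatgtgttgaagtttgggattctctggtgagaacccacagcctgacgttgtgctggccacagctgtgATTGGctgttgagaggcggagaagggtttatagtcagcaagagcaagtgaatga
Sost, chr11:101967016-101967265, minus strand: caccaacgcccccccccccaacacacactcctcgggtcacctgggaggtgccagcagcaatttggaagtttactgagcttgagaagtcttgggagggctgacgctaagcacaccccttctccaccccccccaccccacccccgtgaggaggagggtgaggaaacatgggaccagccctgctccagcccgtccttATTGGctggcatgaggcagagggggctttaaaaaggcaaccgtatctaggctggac
Ifitm5, chr7:140950244-140950493, minus strand: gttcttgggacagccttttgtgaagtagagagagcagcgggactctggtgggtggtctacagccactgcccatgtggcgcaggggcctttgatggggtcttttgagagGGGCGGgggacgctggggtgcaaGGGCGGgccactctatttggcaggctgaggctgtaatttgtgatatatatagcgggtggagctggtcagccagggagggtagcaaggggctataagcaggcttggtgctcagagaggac

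The Ibsp and Sost windows each held 1 CCAAT box, on the opposite strand, beginning 54 and 56 bases before the start, and 33.9% of all 32851 promoter windows of this length held one. The Alpl window held 2 overlapping GC boxes, which begin 15 and 10 bases before its start, while the window of the other Alpl start held none of the 4 motifs. Those of Ifitm5 begin 142 and 119 bases before its start, and 32.7% of all windows held a GC box. Neither the RUNX core, found in 14.1% of all windows, nor the homeodomain core, found in 4.84%, was written in these 4 windows, which says nothing of binding elsewhere. The distance was not particular to Ibsp and Sost, since 1 of the 2 Dmp1 windows, not printed, held a CCAAT box beginning 57 bases before its start. Ifitm5 held none. A match of letters is a description and not a binding site.

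Among the transcription factors, Sp7, without which mice form no bone, was at 4.91 on each of the 2 knockout and 3 wild-type arrays. Its change was therefore 0 with a 95% interval of -0.044 to 0.044, an interval that comes from the moderated spread and not from differences between mice. That 0 did not hold under other scalings, where the change of Sp7 ranged from 0.022 after cyclic loess to 0.072 with the arrays centred on their medians. Dlx5, a homeobox factor of jaw and limb skeleton, was at 5.40 for knockout 2 and 5.34 for knockout 5, compared with 5.40 for each wild-type mouse. Knockout 5 alone was lower, and the change of -0.031 (SE 0.026, limma's adjusted p = 0.453) had a 95% interval of -0.11 to 0.044. The sign turned to 0.074 after cyclic loess and to 0.086 with the arrays centred and scaled. Dlx6, which lies next to Dlx5 in the genome, had 6.54 for knockout 2 and 6.93 for knockout 5 compared with 6.54 for each wild-type mouse, so in knockout 5 it stood above the common value where Dlx5 stood below it.

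Alpl was at 5.57 for knockout 2 and 5.72 for knockout 5, against 5.89, 5.89 and 5.90 in wild types 3, 4 and 6. Both knockout mice lay below all 3 wild-type mice, and the 2 knockout values were 0.15 apart. The means were 5.65 ± 0.10 (SD, n = 2) in knockout and 5.89 ± 0.0017 (SD, n = 3) in wild type, where 2 of the 3 arrays had an identical value. The change was -0.25 (SE 0.052, 95% interval -0.40 to -0.098), a signal 0.843 times that of wild type, with limma's unadjusted p = 0.011 and adjusted p = 0.117. It was -0.32 between the arrays of run 1 (knockout 2 and wild type 3) and -0.17 between those of run 2 (knockout 5 and wild types 4 and 6), where the run is the date in the array name. Another scaling moved the size by over 1.5 times but not the sign, to -0.094 after cyclic loess, -0.10 after quantile normalisation and -0.082 with the arrays centred and scaled. With bulk tissue, fewer cells that express Alpl and less Alpl RNA per cell cannot be told apart.

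Smpd3, which encodes a neutral sphingomyelinase, was at 6.06 for knockout 2 and 5.63 for knockout 5, compared with 5.63 for each wild-type mouse. Only knockout 2 differed. Its change of 0.21 (SE 0.144, limma's adjusted p = 0.399) had a 95% interval of -0.20 to 0.63. It was 0.43 within run 1 and 0 within run 2. In knockout 2, Smpd3 was thus above wild type and Alpl below it.

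The 3 SIBLING genes follow each other on chromosome 5 in the order Dmp1, Ibsp, Mepe, with Dspp before and Spp1 after them, and they gave 3 different patterns. Ibsp, the bone sialoprotein that can nucleate hydroxyapatite, was at 6.57 for knockout 2 and 6.93 for knockout 5, against 6.79, 6.76 and 6.84 in wild types 3, 4 and 6. Knockout 2 was the lowest array and knockout 5 the highest, and Ibsp was the only one of the 10 with 5 different values. Its means were 6.75 ± 0.25 (SD, n = 2) in knockout and 6.80 ± 0.040 (SD, n = 3) in wild type, a change of -0.048 (SE 0.125, limma's adjusted p = 0.830). It was -0.22 within run 1 and 0.13 within run 2, and it became 0.21 after cyclic loess and 0.27 with the arrays centred and scaled, neither past the threshold.

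Dmp1, an acidic matrix protein of osteocytes whose loss causes rickets in mice, was at 4.95 for knockout 2 and 5.50 for knockout 5, compared with 4.95 for each wild-type mouse. Knockout 5 alone stood higher, by 0.56. Its change of 0.28 had a 95% interval of -0.27 to 0.82 (SE 0.189, limma's adjusted p = 0.399). Mepe, an osteocyte protein that yields a peptide inhibiting mineralisation, was at 3.74 on all 5 arrays. Its change of 0 did not hold under other scalings, where it ranged from -0.26 after quantile normalisation to 0.072 with the arrays centred on their medians. Dspp, the dentin member of the cluster, had 5.76 for knockout 2 and 5.96 for knockout 5, against 5.67, 5.70 and 5.70 in wild types 3, 4 and 6. Both knockout arrays were above wild type, with a change of 0.17 that did not pass (limma's adjusted p = 0.346).

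Phex, the peptidase whose loss raises Fgf23 and lowers blood phosphate, was at 4.39 for knockout 2 and 4.37 for knockout 5, compared with 4.37 for each wild-type mouse. The change of 0.013 (SE 0.018, limma's adjusted p = 0.649) was the smallest of those not at 0. Sost, which osteocytes secrete and which restrains bone formation, was at 6.41 for knockout 2 and 6.72 for knockout 5, compared with 6.65 for each wild-type mouse. Knockout 2 was the lowest and knockout 5 the highest, as for Ibsp. Its change of -0.081 (SE 0.106, limma's adjusted p = 0.625) combined -0.24 within run 1 and 0.075 within run 2. It turned to 0.16 after cyclic loess and to 0.21 with the arrays centred and scaled.

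Ifitm5, also called BRIL, differed most between the knockout mice. It was at 3.68 for knockout 2 and 5.75 for knockout 5, compared with 4.93 for each wild-type mouse. Knockout 2 lay 1.25 below wild type and knockout 5 lay 0.82 above it, and wild type was in the middle. The knockout arrays were 2.07 apart, a gap larger than that of 99.6% of all genes. The change of -0.22 (SE 0.700, limma's adjusted p = 0.879) had a 95% interval of -2.23 to 1.80, which holds changes of several fold in either direction. The interval was the widest of the 10. Over the 5 arrays the mean of Ifitm5 lay below that of the median gene (5.13), as did those of Sp7, Dmp1, Phex and Mepe. These genes and Dlx5 also lay below 5.57, the 95th percentile of olfactory and vomeronasal receptor genes.

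**Figure D2:**
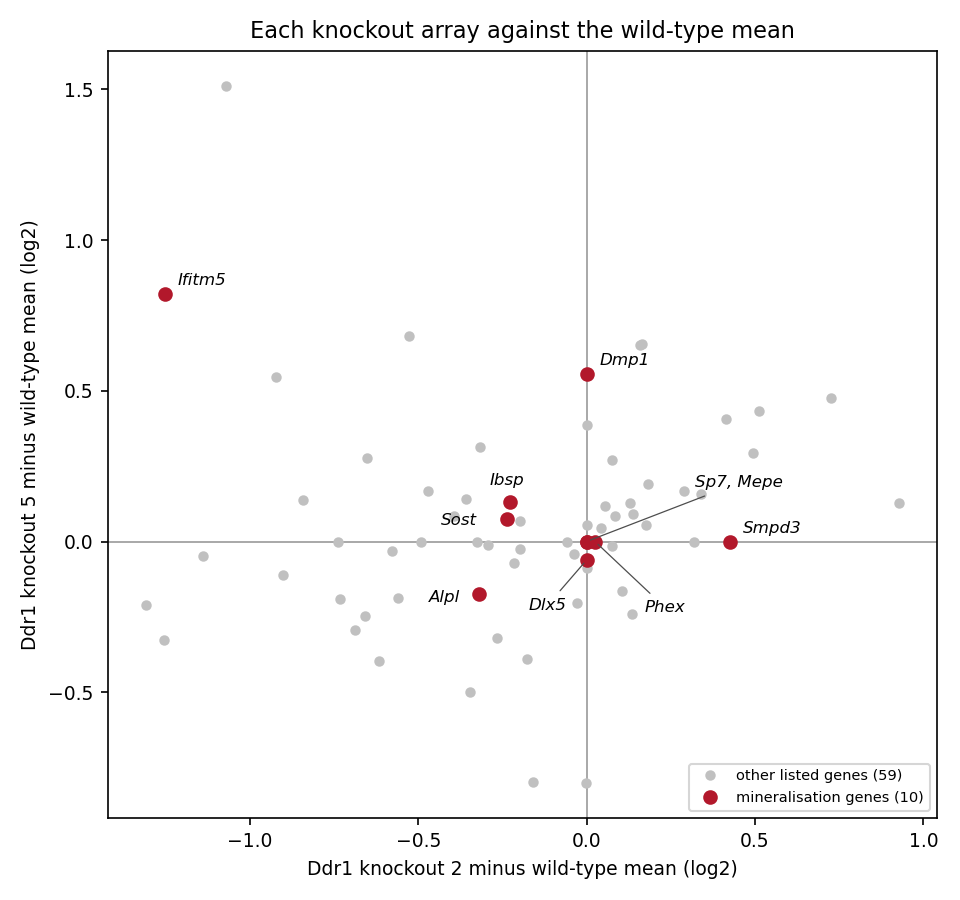
Difference of knockout 2 (horizontal axis) and of knockout 5 (vertical axis) from the wild-type mean, in log2 units; red points are the 10 mineralisation genes and grey points the 59 other genes of the bone and Ifitm lists. Alpl is the only red point below 0 on both axes, Ibsp, Sost and Ifitm5 are below 0 for knockout 2 and above 0 for knockout 5, and Sp7 and Mepe lie at the origin.

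In 3 of the 10 genes 1 knockout array lay above and the other below all wild-type arrays, always with knockout 2 low and knockout 5 high. Over all genes 13.9% had the arrays on opposite sides, and 9.08% in that order. The absolute difference between the knockout arrays had a median of 0.23 over the 10 genes and of 0.29 over all genes, and it lay below the median of all genes for Alpl (0.15), Dlx5, Phex, Sp7 and Mepe and above it for the other 5. The median change was -0.015 over the 10 genes, against -0.0083 over all genes, and that of the 10 turned under every other scaling, to 0.048 after cyclic loess and to 0.065 with the arrays centred and scaled. Of the 10 changes, 3 were above 0, 5 below 0 and 2 at 0. Knockout 2 comes from run 1 and knockout 5 from run 2, as do wild type 3 (run 1) and wild types 4 and 6 (run 2). Across the 2 runs the wild-type values were identical for Sost and Ifitm5, which does not show equal expression, and spanned 0.079 for Ibsp. With 1 knockout mouse in each run, mouse and run cannot be told apart for the gap between the knockout arrays. Its source was not tested.

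By the root mean square difference between their deviations from their own means over the 5 arrays, the gene most like each member was sought among the 10 and the listed bone genes (68 candidates each). Ibsp and Sost were nearest to each other, with a difference of 0.033 on the log2 scale. Alpl was nearest to Fgf23 (0.058), Ifitm5 to its family member Ifitm7 (0.19), Smpd3 to the Wnt inhibitor Dkk1 (0.042), Dmp1 to Dlx6 (0.068) and Dlx5 to the transcription factor Mef2c (0.010). Sp7 and Mepe were equally near to each other and to the homeobox gene Dlx3, since all 3 had a single value on all arrays. Likeness over 5 arrays with many shared values is a description of these arrays only.

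**Figure D3:**
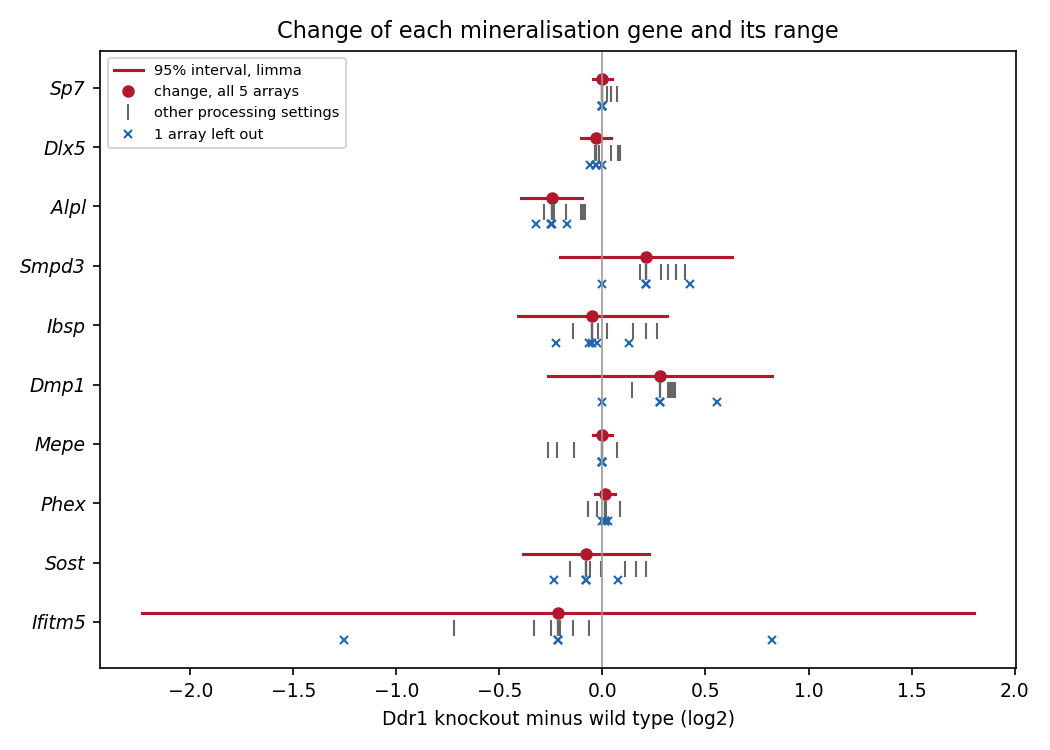
Change of each of the 10 genes, Ddr1 knockout minus wild type in log2 units, with limma's 95% interval (red), its values under the other processing settings (grey ticks) and with 1 array left out (blue crosses). Alpl stays below 0 at every mark, from -0.32 to -0.082, while Ibsp, Sost and Ifitm5 have blue crosses on both sides of 0.

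Other genes of the same processes gave 1 rise and 1 fall. Of 10 measured osteoblast transcription factors, 1 was higher, 0 were lower and 9 did not pass, with a list median of -0.22. The homeobox gene Dlx1 rose, with 5.79 for knockout 2 and 5.80 for knockout 5 compared with 5.61 for each wild-type mouse (change 0.19, SE 0.016, limma's adjusted p = 0.029). The run as a block left it at adjusted p = 0.0781, and cyclic loess gave 0.33 with adjusted p = 0.104. Of 11 measured bone matrix and SIBLING genes outside the 10, 0 were higher, 1 was lower and 10 did not pass. Their median of -0.16 shrank to -0.070 after cyclic loess and to -0.0013 with the arrays centred and scaled. Serpinh1, the chaperone of collagen folding, fell, with 6.28 for knockout 2 and 6.22 for knockout 5 compared with 6.54 for each wild-type mouse (change -0.29, SE 0.024, limma's adjusted p = 0.0276). The block for the run gave it an adjusted p of 0.0684, and cyclic loess shrank the change to -0.070 (adjusted p = 0.653). The wild-type values of Dlx1 and of Serpinh1 were identical, and both calls were lost with any wild-type array left out, at adjusted p of 0.145 to 0.219 for Dlx1 and 0.149 to 0.205 for Serpinh1. No gene of the table passed limma's test under any of those settings. Both calls were also lost with the arrays centred on their medians, where 343 genes were called higher and 292 lower. There limma's adjusted p was 0.0991 for Dlx1 and 0.188 for Serpinh1. Of 12 settings other than a left-out array, each of the 2 genes kept its call in 5.

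No call fell among 13 genes of phosphate, pyrophosphate and matrix vesicles, where the median change was -0.030 (0.089 after cyclic loess). Of the 13, 1 gene, Ahsg, had an unadjusted p under 0.05, against 18.2% of all genes. The values of lowest p there were 0.25 for Ahsg, the serum inhibitor of mineral precipitation (limma's adjusted p = 0.163), 0.12 for the phosphate transporter Slc20a1 and -0.14 for the phosphate hormone Fgf23. Fgf23, like Alpl, was lower in both knockout mice, with 5.94 for knockout 2 and 6.08 for knockout 5 against 6.13, 6.20 and 6.13 in wild types 3, 4 and 6. Its change turned to 0.042 after cyclic loess.

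Among 19 genes of osteoblast and osteocyte signalling none passed, with a median of -0.052 (0.014 after cyclic loess). Of these 19, 5 had an unadjusted p under 0.05, against 18.2% of all genes, namely Tnfrsf11b, Tmem119, Irx5, Bmp2 and Lrp5. Tnfrsf11b, the decoy receptor osteoprotegerin that restrains osteoclast formation, had 5.90 for knockout 2 and 5.70 for knockout 5 compared with 5.40 for each wild-type mouse (change 0.39, limma's adjusted p = 0.0847). Tmem119, a membrane protein of osteoblasts, had a change of 0.47 and the homeobox gene Irx5 one of -0.28, neither past the threshold. In 5 of these 19 genes the knockout arrays were on opposite sides of wild type, against 13.9% of all genes. In 4 of the 19 (the Wnt co-receptor gene Lrp6, the gap junction gene Gja1, Sgms2 and Cadm1) knockout 2 was low, against 9.08% of all genes. In 1, the vitamin D receptor gene Vdr, the order was the other way round. Bmp2, Lrp5 and these 5 genes were named after their values were seen.

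In the family of Ifitm5 none of 6 other members passed, with a median change of 0.26. Ifitm1 and Ifitm7 had the same order as Ifitm5. Ifitm7 was at 4.41 for knockout 2 and 5.88 for knockout 5, against 5.28, 5.35 and 5.37 in wild types 3, 4 and 6. Ifitm1 was at 4.67 for knockout 2 and 5.65 for knockout 5, compared with 5.51 for each wild-type mouse. Ifitm6 and Ifitm10 were higher in both knockout mice than in wild type, with changes of 0.60 (limma's adjusted p = 0.0777) and 0.41 (adjusted p = 0.366). Family members are alike in sequence, and how far their probes cross-react was not tested.

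**Figure D4:**
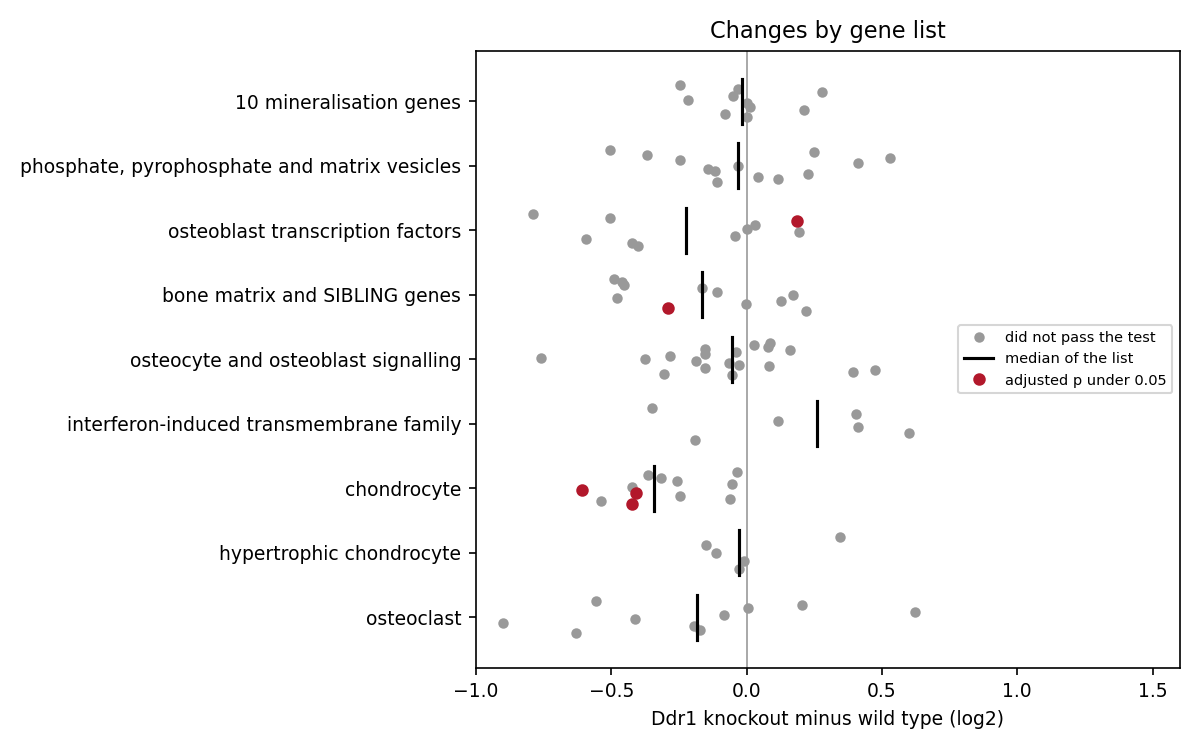
Changes (Ddr1 knockout minus wild type, log2) of the 10 mineralisation genes, of 5 related lists and of 3 lists of cell type markers; each point is a gene, red points passed limma's test at adjusted p under 0.05 and the bar is the list median. The 10 genes hold no red point and have a median of -0.015, the osteoblast transcription factors hold 1 rise and the bone matrix list 1 fall, and the chondrocyte list has all 12 points below 0 and 3 falls (9 below 0 and no fall after cyclic loess; no fall with the run as a block).

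Markers of other cells were set beside these genes. Of 12 chondrocyte markers, all 12 had changes below 0 and 3 (Sox9, Comp and Col9a3) fell, with a list median of -0.34, whereas after cyclic loess 9 of the 12 were below 0, the median was -0.16 and none passed. With the run as a block 11 of the 12 were below 0 and again none passed, as for every gene. Those 3 genes, and Cidec below, were named after their values were seen. The summed linear signal of the 12 chondrocyte markers was 744 for knockout 2 and 837 for knockout 5, compared with 976 to 996 for wild type. It was thus lower in both knockout mice, as Alpl was. Lower values were common among brighter genes as a whole: over the 5787 genes with a mean above 5.57, Alpl among them, the median change was -0.18, with 27 called higher and 302 lower. The summed signal of the 10 mineralisation genes was 445 for knockout 2 and 533 for knockout 5, compared with 485 to 492 for wild type, on either side of wild type. Of 5 hypertrophic chondrocyte markers none passed, and the sums of 252 and 290 in knockout 2 and 5 also lay on either side of the wild-type range of 263 to 279. Of 10 osteoclast markers none passed, with sums of 284 and 391 in knockout 2 and 5 compared with 391 to 401 for wild type. Marrow markers gave 366 and 364 for 8 neutrophil genes in knockout 2 and 5, compared with 319 to 331 for wild type, and 257 and 236 for 5 erythroid genes, against 245 to 250. Sums for skeletal muscle (434 and 466 in knockout 2 and 5, compared with 521 to 570 for wild type), endothelium (196 and 197, against 215 to 233) and fibrous layer (311 and 382, against 378 to 439) were lower than in every wild-type mouse, except for the fibrous layer in knockout 5. For 5 adipocyte genes, of which 1 (Cidec) fell but did not pass after cyclic loess or with the run as a block, the sums were 173 and 210 in knockout 2 and 5, compared with 208 to 217 for wild type. An RMA signal has no true 0, so no marker can be called absent, and the part of other cells in the values of the 10 genes was not tested.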

How the data were processed

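RNA of 5 mice was measured on Affymetrix MoGene-1_0-st-v1 arrays, which probe whole transcripts. The deposited log2 values were made by the authors with Affymetrix Expression Console and RMA, per the submitters' processing notes; versions and a genome build were not given in those sources. Replicates are separate mice per the labels, so a spread between arrays of a group is one between mice, array variation included. Where the wild-type values were identical, as for 8 of the 10 genes, the p-value rests on the knockout pair and limma's moderation. For Sp7 and Mepe it rests on the moderation alone. Rows were named from the platform annotation. Of 35556 rows, 21789 had 1 gene symbol, 1621 several and 12146 none. Rows with several or none were left out, and the brightest row was kept for the 999 genes with more than 1, which left 19938.

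The comparison used lmFit and eBayes of limma 3.58.1 (R 4.3.3), two-sided, on 2 knockout and 3 wild-type arrays. Benjamini-Hochberg adjustment was over all genes, with a threshold of 0.05. The fit was tested on simulated data with normal noise, which holds no values shared between arrays, so that test does not cover them. Alternatives covered the array run, scaling, row choice, filters on dim genes, variance model, array weights and each array left out. No detection call was used. Their number limits the precision of the arrays. All 10 members are named; from each related list, genes past the threshold or else up to 3 of lowest p; for each member the nearest gene by pattern. Dspp, as a neighbour of the SIBLING members, Dlx6 beside Dlx5 and Sparc were added after their values were seen. The members and lists were chosen with earlier results of these data known.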

Additional observations from a re-analysis of the deposited data

How the results depend on the processing

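No paired analysis was possible because the groups share no replicate number. For the 8 genes with a change other than 0 there were 89 results under settings other than a left-out array. Of these, 75 kept their direction and side of the threshold, 14 turned sign and 0 passed. All 14 turns came from other scalings. Each member had 1 row, so row choice, variance model and filters on dim genes could not turn its change. With the run as a block, cyclic loess, quantile normalisation or array weights no gene of the table passed, so no member could pass there. Sp7 and Mepe, at 0, had no direction to keep, and 0 of their 20 results passed. The signs that turned were, after cyclic loess, Ibsp 0.21, Sost 0.16, Dlx5 0.074 and Phex -0.068, with Ddr1 0.035 and Fgf23 0.042. After quantile normalisation they were Ibsp 0.15, Sost 0.11, Dlx5 0.085 and Phex -0.068, with Ddr1 0.011 and Fgf23 0.013. With arrays centred and scaled they were Ibsp 0.27, Sost 0.21, Dlx5 0.086 and Phex -0.025, with Ddr1 0.068 and Fgf23 0.071. With arrays centred on the median they were Ibsp 0.024, Dlx5 0.042 and Mef2c 0.029. Array weights, which were 0.014 for knockout 2 and 0.0050 for knockout 5 against 6.17 to 50.6 for wild type, turned Sparc to -0.55. The cause was not tested. The filters on dim genes kept 5 members (above the median gene, 5.13) or 4 (above 5.57, the 95th percentile of olfactory and vomeronasal receptor genes). The 5 were Alpl, Ibsp, Sost, Dlx5 and Smpd3, and the higher filter dropped Dlx5 as well, so the others have no value there. The median of the 10 genes ranged over less than the spread between the knockout arrays of a typical member. With 1 array left out, 0 to 3 members were higher and 0 to 4 lower. Calls appeared when a knockout array was left out, 3 higher and 2 lower without knockout 2, and 2 higher and 4 lower without knockout 5. The lone knockout array was then given the spread of wild type, which was 0 for 8 of the 10. Without knockout 2 the changes were 0.82 for Ifitm5, 0.13 for Ibsp and 0.075 for Sost, and without knockout 5 they were -1.25, -0.23 and -0.24. Without knockout 2 or knockout 5, the change was 0.14 or -0.84 for Ifitm1, 0.54 or -0.92 for Ifitm7 and 1.51 or -1.07 for Sparc.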

Other observations

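Sparc, the collagen-binding protein osteonectin of bone matrix, was singled out after its values were seen. It was at 6.36 for knockout 2 and 8.95 for knockout 5, against 7.11, 7.50 and 7.70 in wild types 3, 4 and 6, the order seen in Ibsp, Sost and Ifitm5. The knockout arrays were 2.58 apart, and the change of 0.22 did not pass (limma's adjusted p = 0.915).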
